A study of Mus musculus with 20 samples.

Results

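The core myelin genes described here are Mbp, Mobp, Mog, Mag, Cnp, Cldn11, Mal, Ugt8a and Opalin, 9 of the 23413 gene names in the count tables of the cortex of APOE4 mice. They were chosen by name, as genes for the structure of the myelin that mature oligodendrocytes make. All 9 were counted in all 20 libraries, and all 9 were among the 15660 genes that passed the expression filter, with at least 136 reads on any of them in any library. The study asked whether a long-term ketogenic diet (KD), which is rich in fat and poor in carbohydrate, alters memory and the brain in aged mice that carry the human APOE4 allele.

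Every mouse carried the same APOE4 knock-in (APOE4KI in the labels), in which human APOE4 stands in place of the mouse gene, was housed singly and was 22 months old at collection. The groups were 5 females and 5 males on the control diet (CD, labelled SD) and 4 females and 6 males on the KD, with either diet given in isocaloric amounts for 12 months from 10 months of age. No mice with another APOE allele or without the knock-in were among these libraries, so the comparisons are between diets and between sexes within APOE4 mice. Stranded total RNA libraries were made from frozen cortex, 1 per mouse, and their numbers fall into 2 series of 10 libraries with mice of every group in both. Total counts were 21015275 to 29109990 in series 1 and 12207161 to 17697342 in series 2. Levels are in CPM, the count of a gene relative to all counts of its library. Mouse Apoe was at 1.33 to 3.34 CPM in every library, and Xist and Ddx3y followed the labelled sexes apart from 14.01 CPM of Ddx3y in CD female E228. Smaller departures were 7.59 CPM of Xist in KD male E254 and 1.64 CPM of Ddx3y in CD female E249. Markers of cortical excitatory neurons were found in all libraries, summing to 467 to 1392 CPM over 10 genes. Those of striatal neurons summed to 239 to 3715 CPM and those of the choroid plexus to 11.5 to 2370 CPM over 8 genes, both highest in KD male E59.

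Oligodendrocytes wrap axons of the central nervous system in many layers of their own membrane, which insulates the axon and speeds conduction. A precursor, marked by Pdgfra and Cspg4, passes through a newly formed stage, marked by Gpr17 and Enpp6, before it switches on the myelin genes under transcription factors such as Sox10 and Myrf. In compact myelin the cytoplasmic faces are held together by the basic proteins that Mbp and Mobp encode. Claudin of the Cldn11 gene seals the layers with tight junctions, and Mal encodes a proteolipid that sorts membrane to the sheath. Mog encodes an immunoglobulin-like protein of the outermost layer, and Mag an adhesion protein of the innermost layer, which faces the axon. The Cnp gene product, a cyclic nucleotide phosphodiesterase, keeps channels of cytoplasm open between the layers. Ugt8a encodes the enzyme that makes galactosylceramide, a major myelin lipid, and Opalin a membrane protein that marks mature oligodendrocytes.

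In the GENCODE annotation of GRCm38, the build that matches mm10, the members lie at 9 separate loci, and reads were counted per gene, over exons of all transcripts. Mbp is at chromosome 18, 82475146 to 82585637, plus strand, Mobp at chromosome 9, 120149707 to 120181484, plus strand, and Mog at chromosome 17, 37010743 to 37023398, minus strand. Mag is at chromosome 7, 30899176 to 30914873, minus strand, Cnp at chromosome 11, 100574904 to 100591729, plus strand, and Cldn11 at chromosome 3, 31149920 to 31164324, plus strand. Mal is at chromosome 2, 127633226 to 127656695, minus strand, Ugt8a at chromosome 3, 125865271 to 125938619, minus strand, and Opalin at chromosome 19, 41061710 to 41077113, minus strand. In 4 of them the span overlaps another annotated gene, for Mbp the pseudogene Rpl21-ps8, for Mobp the transcript Gm38642, for Mog the small RNA Gm22388 and for Cnp the opposite-strand gene Dnajc7, so their counts are uncertain to that extent. The strand that was counted is not given in the sources used here.

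The levels of the 9 genes spanned a wide range. Per kilobase of exon, Mal was the highest, at 125 ± 36.1 CPM per kb (SD, n = 20), followed by Mbp at 82.2 ± 22.0. Cldn11 at 60.0 ± 16.8 and Cnp at 56.0 ± 17.5 came next, and then Mog at 32.6 ± 9.83, Ugt8a at 28.6 ± 7.61, Mobp at 23.7 ± 7.56 and Mag at 18.6 ± 6.94 CPM per kb. Opalin was the lowest at 6.37 ± 2.32 CPM per kb. Some neighbours in this order did not differ beyond their spread, since Cldn11 was above Cnp in 13 of 20 libraries, Mog above Ugt8a in 14 and Ugt8a above Mobp in 13. The other steps held in at least 16 of 20 libraries, and those from Cnp to Mog and from Mag to Opalin in all 20. Without the division by length Mbp was first, at 696 ± 187 CPM, ahead of Mal at 347 ± 100.2 CPM. The length was that of the exons of all annotated transcripts together, 8469 bases over 16 transcripts for Mbp and 2778 over 2 for Mal. The order per kilobase depends on that choice, and the annotation used for counting is not given.

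Promoter sequence is shown for the members that varied most alike across the libraries (correlations below), Mag with Cnp and Cldn11 with Mal. The 250 bases before the RefSeq start on GRCm38.p6 are printed, Mag chr7:30914864-30915113 on the minus strand, Cnp chr11:100574689-100574938 on the plus strand, Cldn11 chr3:31149670-31149919 on the plus strand and Mal chr2:127656696-127656945 on the minus strand. Capitals mark matches to the searched letters on either strand.
Mag: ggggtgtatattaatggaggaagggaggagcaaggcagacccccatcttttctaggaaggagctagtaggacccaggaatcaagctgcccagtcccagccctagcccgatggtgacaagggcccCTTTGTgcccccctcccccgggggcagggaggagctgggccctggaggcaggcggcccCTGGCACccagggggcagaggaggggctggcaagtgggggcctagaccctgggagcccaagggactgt
Cnp: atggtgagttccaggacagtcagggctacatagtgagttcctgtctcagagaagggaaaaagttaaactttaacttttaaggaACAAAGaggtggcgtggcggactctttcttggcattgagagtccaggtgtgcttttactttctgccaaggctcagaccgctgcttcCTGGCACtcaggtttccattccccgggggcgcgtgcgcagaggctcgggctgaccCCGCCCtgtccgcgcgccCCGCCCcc
Cldn11: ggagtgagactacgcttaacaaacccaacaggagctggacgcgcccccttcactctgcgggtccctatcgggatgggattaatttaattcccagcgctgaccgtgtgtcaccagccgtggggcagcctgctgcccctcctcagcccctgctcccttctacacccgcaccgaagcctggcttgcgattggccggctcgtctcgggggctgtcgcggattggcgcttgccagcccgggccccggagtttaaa
Mal: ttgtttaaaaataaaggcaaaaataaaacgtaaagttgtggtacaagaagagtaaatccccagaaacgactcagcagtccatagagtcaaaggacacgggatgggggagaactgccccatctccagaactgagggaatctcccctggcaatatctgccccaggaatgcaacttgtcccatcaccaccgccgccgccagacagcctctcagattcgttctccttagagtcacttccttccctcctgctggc

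These motifs were searched on both strands in the windows from 250 bases before to 50 after each start. ACAAAG, a core of SOX-type sites, was in the windows of Mag, at -126 from the start, and Cnp, at -167, and in 18.7% of all 32851 promoters. CTGGCAC, a form of the letters reported for MYRF sites, was in both as well, at -68 and -81, and in 5.01% of all. Neither was in the windows of Cldn11, Mal, Ugt8a or Mog, but Mog held CTGGTAC, the other searched form of the MYRF letters, at -83 (2.24% of all). Opalin held ACAAAG with 2 matches, CTGGCAC and CAGCTG (16.3% of all), Mobp held 6 matches of ACAAAG, and Mog held CTGGTAC (2.24% of all). GGGCGG, the GC box, was in 35.7% of all promoters and in the windows of Cnp, Cldn11 and Ugt8a. TATAAA, in 13.6% of all, and ACAATG, in 12.6%, were in none of the 8 windows searched. Mbp was the member whose window was not searched. A match is a string of letters and not a measured site. Mag has 3 windows in the table, and the one nearest to its annotated start was used.

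In females all 9 core myelin genes were higher on the KD, with a median log2 fold change of 0.22, but none passed the test. The range ran from 0.006 for Cldn11 to 0.35 for Mobp and Cnp, with standard errors of 0.21 to 0.31 and adjusted p from 0.583 to 0.998 (edgeR quasi-likelihood F test). Over all tested genes the median was 0.01, and 52.7% were above 0. No member had an unadjusted p under 0.05 in this direction, against 5.86% of all genes. DEGs were genes with an adjusted p of at most 0.1 and a change of at least 1.5-fold. There were 7 DEGs in females (0.0447% of all tested) by edgeR, and 0 of them were members. This count was 0 without KD female E61 or E207 and 1046 without CD female E249, and DESeq2 gave 253 DEGs, again with 0 members among them.

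Cnp was at 223, 190.4, 200.03, 131 and 129 CPM in the 5 CD females and at 293, 243, 219.6 and 201 CPM in the 4 KD females. Values are given here with series 1 first. All but 1 of the CD females were below every KD female, and the exception, E62, was above both KD females of series 2. The fitted log2 difference of Cnp was 0.35 (95% interval -0.09 to 0.79, adjusted p = 0.583 by edgeR), the smallest adjusted p of the members in females. Mbp was at 697, 559, 816, 457 and 500.3 CPM in the 5 CD females and at 846, 659, 896 and 796 CPM in the 4 KD females. CD females E62 and E228 were above the lowest KD female, so the groups overlapped, and the log2 difference was 0.34 (95% interval -0.20 to 0.87, adjusted p = 0.7 by edgeR). Mobp was at 172, 122, 210.1, 145 and 134 CPM in the 5 CD females and at 179, 158, 272 and 218 CPM in the 4 KD females. KD female E207 was the highest of all 20 libraries for Mobp, and CD females E62 and E228 were above the lowest KD female. The log2 difference was 0.35 (95% interval -0.29 to 0.99, adjusted p = 0.759 by edgeR).

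Cldn11 was at 123, 98.4, 107, 107 and 143 CPM in the 5 CD females and at 155, 158, 101 and 98.4 CPM in the 4 KD females. The 2 KD females of series 1 were above every CD female and the 2 of series 2 were close to the lowest CD females, which left a log2 difference of 0.006 (95% interval -0.51 to 0.52). Mal was at 366, 269.8, 327, 336 and 397 CPM in the 5 CD females and at 449, 547, 342 and 323 CPM in the 4 KD females. For Mal and Ugt8a, too, the KD females of series 1 were above every CD female and those of series 2 lay within the CD range. Within series 1 the log2 difference in females was 0.46 for Cldn11, 0.61 for Mal and 0.60 for Ugt8a, and within series 2 it was -0.33, -0.16 and -0.15. The other members were higher on the KD within both series, with 0.22 and 0.45 for Mbp, 0.16 and 0.52 for Mobp, and 0.33 and 0.39 for Cnp. Each series held only 2 KD females, and no member was called within either.

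Mog was at 58.96, 50.2, 58.7, 48.5 and 46.9 CPM in the 5 CD females and at 74.2, 74.5, 53.4 and 55.9 CPM in the 4 KD females. Mag was at 90.1, 70.8, 85.6, 47.6 and 51.2 CPM in the 5 CD females and at 108, 79.0, 83.6 and 75.1 CPM in the 4 KD females. Opalin was at 16.5, 15.6, 23.9, 13.4 and 10.8 CPM in the 5 CD females and at 23.9, 18.8, 20.2 and 20.1 CPM in the 4 KD females. In all 3 genes every KD female was above the median of the CD females. The KD and CD libraries of females overlapped in all 9 members, as they did in all but 2.1% of the genes tested. The median difference of the members was 0.15 without CD female E67 and 0.40 without CD female E228, the female with the highest Ddx3y. Other cell types differed between these females as well. The striatal markers summed to 340 to 3144 CPM in KD and 239 to 1137 in CD females, with 8 of 10 higher at p under 0.05 by edgeR. KD female E227 was at 340 CPM and the other KD females at 2477 to 3144. CD female E249 was at 1137 and the other CD females at 239 to 325. The cortical excitatory markers summed to 496 to 1092 in KD and 467 to 1392 in CD females, with 6 of 10 lower at p under 0.05, and 4 of 10 microglial markers were higher. Over all tested genes 5.86% were higher at that p, and 1780 of 15660 were at it in either direction. The highest cortical sum in KD females was that of E227 and the lowest in CD females that of E249. There were 906 DEGs in females without E227, 1046 without E249 and 1953 without both. The part of these other cell types in the myelin values was not tested. In bulk tissue a lower or higher number of oligodendrocytes cannot be told apart from less or more myelin RNA per cell.

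**Figure D1:**
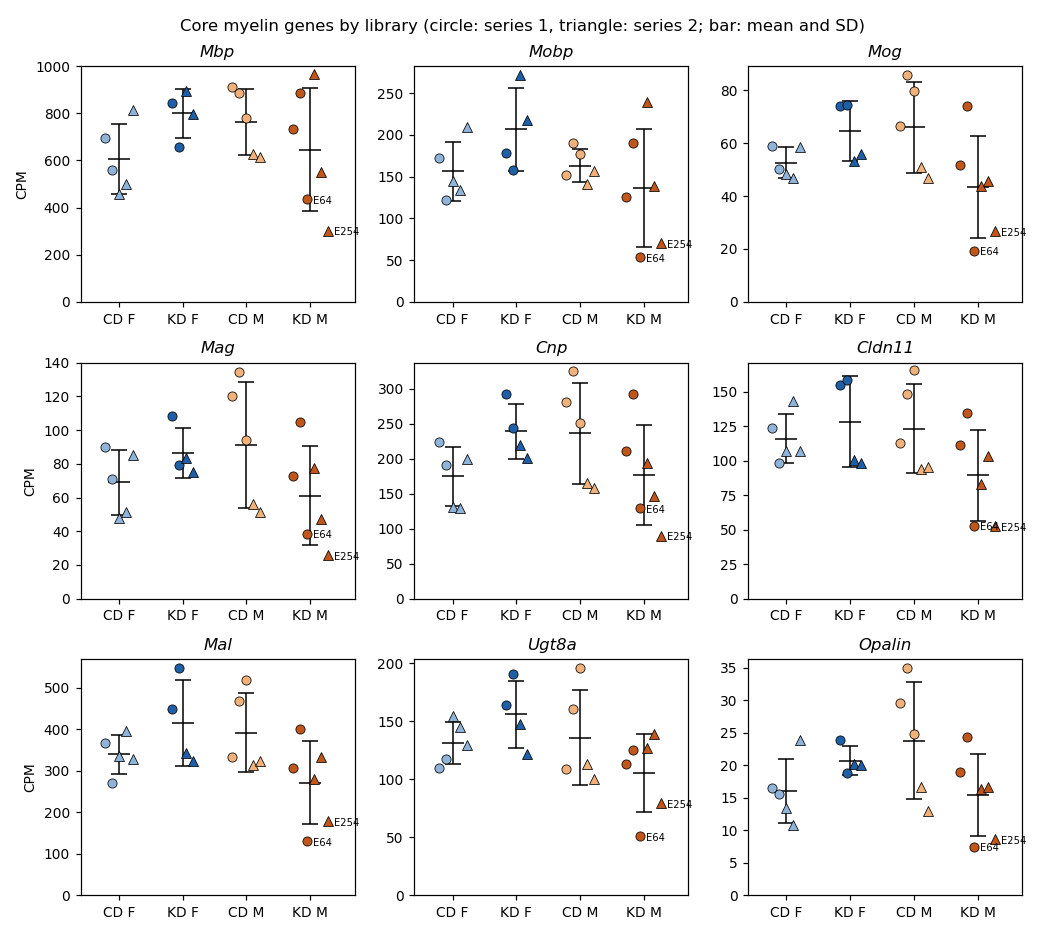
CPM (y axis, linear from 0) of each core myelin gene in the 20 libraries by diet and sex (x axis); circles are library series 1, triangles series 2, and bars the mean and SD of the group. KD males E64 and E254, named on the plot, are the lowest 2 libraries in all 9 panels, with Mbp at 435.8 and 301 CPM.

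In males the direction was the opposite, with all 9 members lower on the KD, at a median log2 fold change of -0.43, and again none passed the test. The median over all tested genes was -0.003, and 50.9% of them were below 0. For Mog, Mal and Opalin the unadjusted p was under 0.05, with the KD lower, against 1.19% of all genes tested. Their adjusted p was 1 each by edgeR. There were 0 DEGs in males (0% of all tested), with 557 genes at an unadjusted p under 0.05, and DESeq2 gave 0 as well.

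Mog was at 66.4, 85.8, 79.7, 50.97 and 46.7 CPM in the 5 CD males, and in the 6 KD males at 19.3 CPM at the lowest, 44.8 at the median and 73.9 at the highest. The lowest 2 KD males were below all other libraries, and the highest KD male, E59, was within the CD range. KD males averaged 43.5 ± 19.3 CPM (SD, n = 6) and CD males 65.9 ± 17.2 CPM (SD, n = 5). The log2 difference was -0.56 (95% interval -1.04 to -0.07, adjusted p = 1 by edgeR). Opalin was at 29.6, 34.9, 24.9, 16.7 and 13.0 CPM in the 5 CD males, and in the 6 KD males at 7.53 CPM at the lowest, 16.6 at the median and 24.3 at the highest. Its log2 difference, -0.57 (95% interval -1.15 to -0.0021, adjusted p = 1 by edgeR), was the largest of the members. Mal was at 334, 468, 519.6, 314 and 323 CPM in the 5 CD males, and in the 6 KD males at 131 CPM at the lowest, 294 at the median and 399.5 at the highest. The log2 difference of Mal was -0.51 (standard error 0.24, adjusted p = 1 by edgeR). In all 3 genes the 3 CD males of series 1 were above the 2 of series 2. The KD males overlapped both for Mog and Mal. For Opalin they overlapped the CD males of series 2 only, since the highest KD male, at 24.3 CPM, was below the lowest CD male of series 1, at 24.9.

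Mbp was at 913, 886, 779, 626 and 614 CPM in the 5 CD males, and in the 6 KD males at 301 CPM at the lowest, 643 at the median and 968 at the highest. KD male E213 was the highest of all 20 libraries for Mbp and E254 the lowest, so the KD males covered the whole range, and the log2 difference was -0.24 (95% interval -0.72 to 0.25). Mag was at 120.0, 135, 94.4, 55.9 and 51.5 CPM in the 5 CD males, and in the 6 KD males at 25.8 CPM at the lowest, 60.1 at the median and 105 at the highest. For Mag the log2 difference was -0.49 (95% interval -1.04 to 0.06), for Cnp -0.35, for Cldn11 -0.43, for Ugt8a -0.37 and for Mobp -0.31. The KD and CD males overlapped in all 9 members, and 0.217% of all tested genes did not overlap. Of the other markers, the choroid plexus list differed most between the male groups. Of its 7 tested genes, 5 were higher on the KD at p under 0.05 by edgeR. In either direction, 557 of all 15660 genes tested were at that p in males. KD male E59 carried the highest values of the choroid plexus list, and without this mouse the members' median in males was -0.56.

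**Figure D2:**
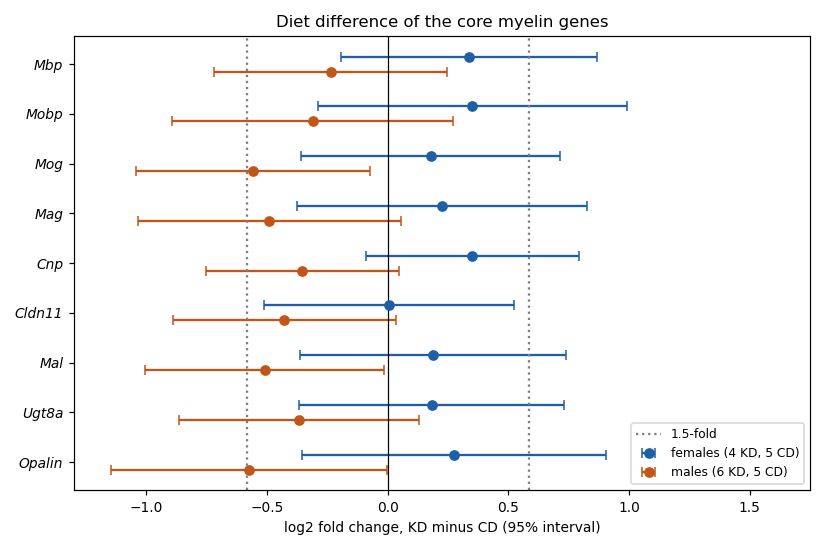
Log2 fold change of KD over CD (x axis) for each core myelin gene (y axis) in females (blue) and males (orange), with 95% intervals from the edgeR fit; dotted lines mark a 1.5-fold change. All 9 estimates lie above 0 in females and below 0 in males, from 0.006 to 0.35 and from -0.57 to -0.24, and all 9 female intervals include 0.

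The difference between the sexes in the effect of the diet was tested as an interaction, the log2 fold change in females minus that in males. It was above 0 for all 9 members, from 0.43 for Cldn11 to 0.85 for Opalin, with a median of 0.70 against 0.0057 over all tested genes, of which 51.3% were above 0. For Cnp it was 0.70 (95% interval 0.10 to 1.30) and for Mog 0.74 (95% interval 0.0077 to 1.46), each with an adjusted p of 1 by edgeR. These were the 2 members with an unadjusted p under 0.05 and a positive difference, a property of 1.09% of all genes. No gene was a DEG for the interaction (0%) by edgeR (41 were without KD female E227), with 335 at an unadjusted p under 0.05, and DESeq2 gave 1, which was no member. With the diets averaged over both sexes, the members had a median of -0.13, with 2 higher and 7 lower on the KD, and 0 of 9 were among the 42 DEGs (0.268% of all), a count that was 2 without CD male E51 and 791 without CD female E249. Between the sexes, averaged over both diets, the median was 0.15, with 7 members higher in females, adjusted p from 0.52 to 0.993, and 0 of 9 among the 21 DEGs (0.134%), which were 8 without CD male E58 and 813 without KD female E227.

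The lowest values in KD males were those of 2 mice. In E64, of series 1, and E254, of series 2, each of the 9 members was among the lowest 2 of all 20 libraries, whichever group the others belonged to. Relative to the median library, the members were at a median log2 value of -1.23 in E64 and -1.03 in E254. In the other 18 libraries this median was between -0.23 and 0.49. The 9 genes summed to 919 CPM in E64 and 834 CPM in E254, against 1439 to 2434 CPM in the others and 1523 to 2232 CPM in the other 4 KD males. Both libraries were within the range of the others in depth, with 27770255 and 16604289 counts, and in the number of genes with counts, 18086 and 17973 against 17286 to 18670. Of all tested genes, 2.03% had these 2 mice as the lowest 2.

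**Figure D3:**
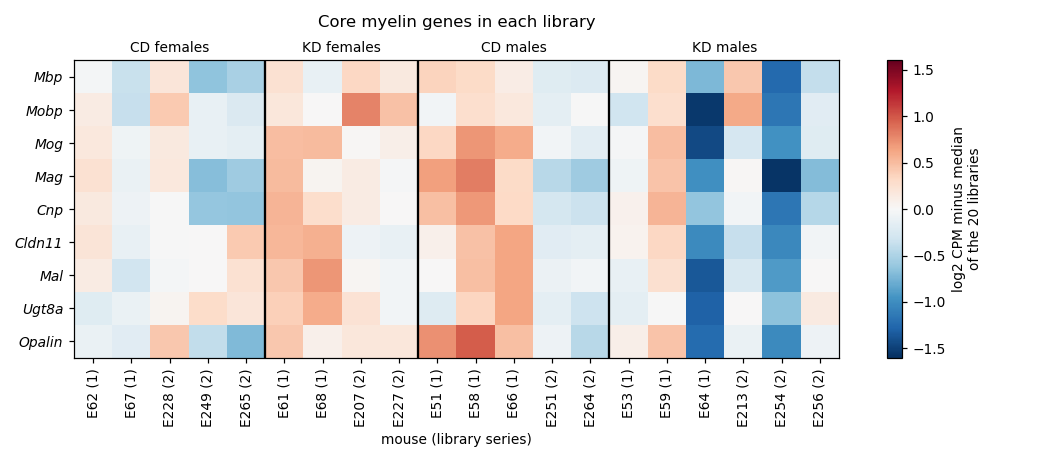
Each core myelin gene (rows) in each of the 20 libraries (columns, by group, with the library series in parentheses), as log2 CPM minus the median of the 20 libraries (color). The columns of E64 and E254 are the deepest blue, at medians of -1.23 and -1.03; CD female E67 and CD males E251 and E264 are also below 0 in all 9 rows, at -0.12, -0.16 and -0.22, and those of CD males E58 and E66 and KD female E61 are red in all 9.

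Without both mice, a fit chosen after their values had been seen, the median difference in males moved from -0.43 to -0.16, with 2 members higher and 7 lower on the KD and none at p under 0.05. Mbp was then at 0.05 and Mobp at 0.04, and the lowest was Opalin at -0.26. The median interaction was 0.40 in that fit, still above 0 for all 9 members. Leaving out E64 alone gave a median of -0.28 in males, and leaving out E254 alone gave -0.34. Within series 1, which holds 3 KD and 3 CD males, the members were lower on the KD by a median of -0.70, and within series 2, with 3 KD and 2 CD males, by -0.10.

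Other myelin protein genes were low in the same 2 mice, and most genes of the earlier stages were not. Ermn, for a cytoskeletal protein of late myelination, was at 42.6 CPM in E64 and 69.4 in E254, against 111.5 to 218 CPM in the other libraries. In all, 14 of 25 other myelin protein genes were below the whole range of the others in both mice, and 22 of 25 below the median. Of the 15 lipid synthesis genes only 4 were below the range in both, among them Aspa, for an enzyme that frees acetate for myelin lipids, at 13.3 and 25.8 against 37.1 to 70.3 CPM. Hmgcs1, of the sterol pathway that all cells share, was at 523 and 546 against 406 to 630 CPM.

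Among the transcription factors, Myrf was at 4.57 CPM in E64 and 5.12 in E254 and below the other libraries, at 7.55 to 15.9. Sox10, which marks the lineage at every stage, was at 7.53 in E64, within the range of the others at 4.42 to 13.2, and at 2.83 in E254, below it. Olig2, which is also present from the precursor on, was at 10.0 and 6.14 against 6.91 to 14.4 CPM. Pdgfra, the growth factor receptor of precursors, was at 124 and 89.3 CPM, within 70.7 to 129 of the others. Gpr17 was at 36.6 in E64, the highest of all libraries, and at 15.2 in E254, within 11.6 to 33.0 of the others. The precursor list summed to 876.5 and 782 CPM against 606 to 1083, and no gene of the precursor or newly formed lists was below the range in both mice. Enpp6 was at 3.35 in E64, below the others at 4.02 to 12.2, and at 4.94 in E254, and it was the 1 gene of 10 of the newly formed list that was below the median in both. The transcription factor list summed to 357 CPM in E64 and 340 in E254 against 368 to 528, below the others in both, although Myrf was its 1 gene of 13 below the range in both. Zeb2, the largest part of that sum, was at 212 and 242 against 152 to 356 CPM. Astrocyte markers summed to 6668 and 6470 CPM against 5483 to 7426, and microglial ones to 469 and 354.5 against 315 to 587. The part of tissue make-up or dissection in these values was not tested.

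**Figure D4:**
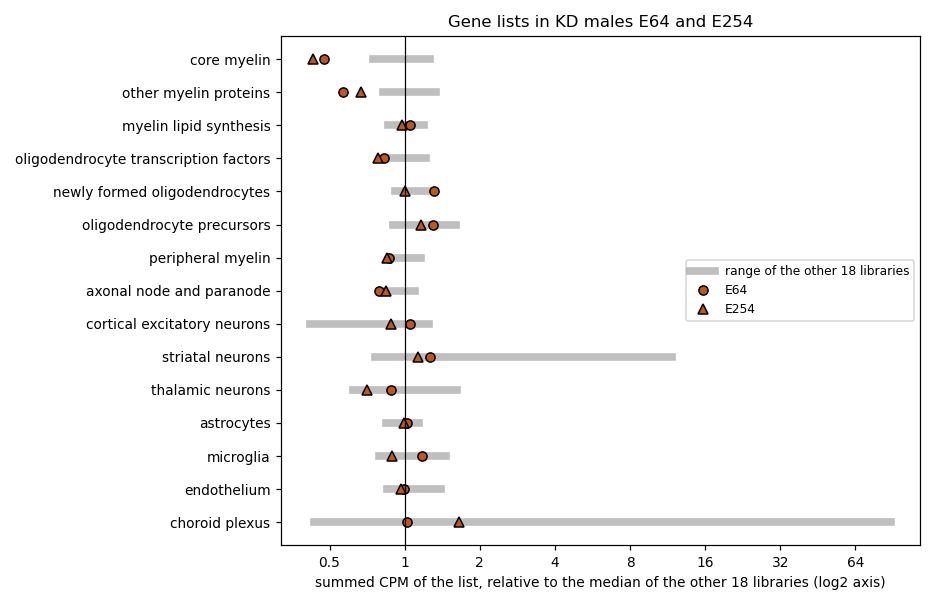
Summed CPM of each gene list (y axis) in KD males E64 (circle) and E254 (triangle), relative to the median of the other 18 libraries (x axis, log2 scale); grey bars span those 18. Core myelin genes, at 919 and 834 CPM, other myelin protein genes, transcription factors and peripheral myelin genes lie left of their bars in both mice. Precursors, astrocytes and microglia lie within theirs, and newly formed oligodendrocytes in E64, at 294 CPM, lie right of theirs. Zeb2, at a mean of 260 CPM, is most of the transcription factor sum, and Drp2, at 104, most of the peripheral myelin sum.

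Outside the members, the same diet directions were seen in the wider myelin list, whose genes varied with the members (median r of 0.79, below). In females 21 of its 25 genes were higher on the KD, at a median log2 fold change of 0.15, against 52.7% of all tested genes. In males 24 of 25 were lower, at -0.33, against 50.9% of all, and 14 of the 25 had E64 and E254 as their lowest 2 libraries. None was a DEG in either sex, and at an unadjusted p under 0.05 there was 1, Jam3, a junction adhesion gene, at -0.28 in males. The lipid synthesis list was near 0, with 0.07 in females and -0.05 in males and no DEG among its 15 genes. Precursor genes had a median of 0.29 in females and 0.21 in males, higher on the KD in both, with 0 of 10 called. For the 9 tested genes of newly formed oligodendrocytes the medians were 0.16 and 0.13. Of those, Gpr17 was at 0.46 in females (adjusted p = 0.424 by edgeR).

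In the transcription factor list 4 of 13 genes were higher in KD females at p under 0.05 by edgeR and 1 was lower. Over all tested genes 5.86% were higher at that p. The 4 were Tcf7l2, at 1.16 (adjusted p = 0.212 by edgeR), Carhsp1 at 0.71, Zfp536 at 0.37 and Olig1 at 0.28. Zeb2 was lower, at -0.63 (adjusted p = 0.19 by edgeR). Carhsp1 is in the list but is not an established transcription factor. Tcf7l2 is in the list of thalamic neurons as well, and none of the 13 was a DEG by diet in either sex. In the list of peripheral myelin genes, Pmp2, for a fatty acid binding protein, was at 0 in 15 libraries. The 6 tested genes of that list had medians of 0.00 in females and -0.16 in males.

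The members varied together from mouse to mouse. Across the 36 pairs, Pearson's r of log2 CPM over the 20 libraries was from 0.47 to 0.97 with a median of 0.73, and Spearman's rho from 0.27 to 0.96 with a median of 0.66. After group and series means were taken out the median r was 0.82. The libraries share 2 series and 4 groups, and E64 and E254 stretch the range, so that these values are a description. Without E64 and E254 the median was 0.49, from -0.10 for Mobp with Cldn11 to 0.96 for Mag with Cnp. Within series 1 the median was 0.92 and within series 2 it was 0.78.

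The correlations fell into 2 sets of members, with Mog close to both, and the sets were picked after their values had been seen. Mbp, Mag, Cnp and Opalin had r from 0.85 to 0.97 with each other, and Mog, Cldn11, Mal and Ugt8a from 0.83 to 0.96. Between the sets r was from 0.47 to 0.90. Mog had r of 0.93 with Mal and 0.91 with Cldn11, but 0.83 with Ugt8a. Its r was 0.90 with Opalin, 0.85 with Mag, 0.84 with Cnp and 0.73 with Mbp. When E64 and E254 were left out, Mog was at 0.86 with Cnp, 0.82 with Mag, 0.81 with Opalin and 0.50 with Mbp. In that setting it was at 0.80 with Mal, 0.79 with Cldn11 and 0.52 with Ugt8a. The closest pairs were Mag with Cnp, at 0.97, and Cldn11 with Mal, at 0.96. Mobp was closest to Mbp, at 0.82, over the 20 libraries as they are, and to Cnp, at 0.95, after group and series means were taken out.

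**Figure D5:**
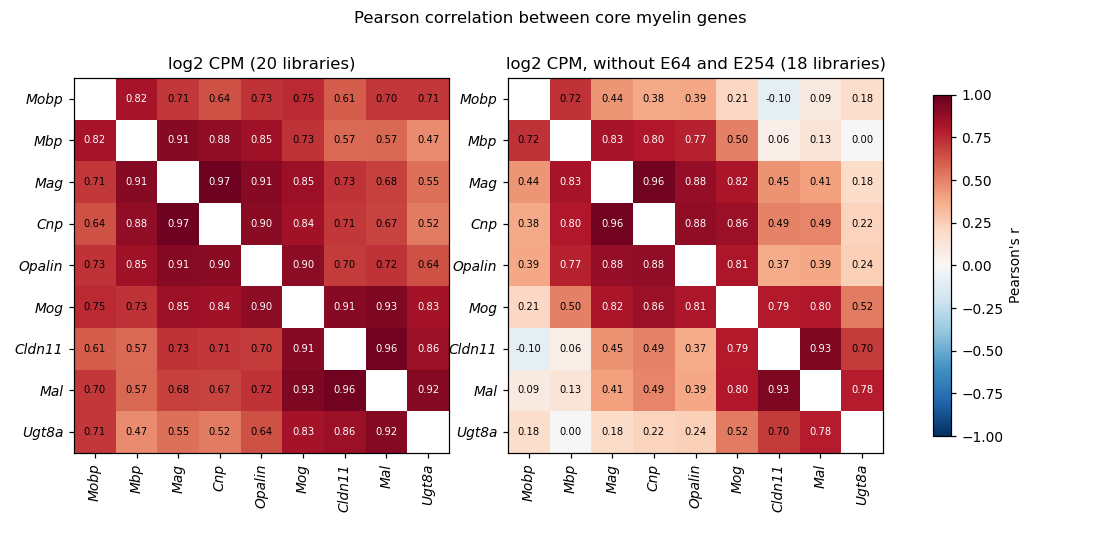
Pearson's r between core myelin genes over the 20 libraries (left) and over 18 without KD males E64 and E254 (right), each row and column 1 gene and color the value of r. The Mag, Cnp and Opalin block keeps r of at least 0.88 on the right, whereas Mbp with Ugt8a drops from 0.47 to near 0.

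The library series, each with different mice of every group, were compared as well, and many genes differed between them. Of the 15660 genes tested, 5930 were at an unadjusted p under 0.05 by edgeR in either direction. Cnp was lower in series 2 by a log2 difference of -0.51 (standard error 0.14, adjusted p = 0.0163 by edgeR) and Mag by -0.54 (standard error 0.20, adjusted p = 0.0546). The other 7 had an adjusted p above 0.1, from -0.34 for Mog and -0.32 for Cldn11 to -0.02 for Ugt8a and 0.21 for Mobp, so that members of both sets were among the more and the less different. The members' median was -0.31, with 8 lower and 1 higher in series 2. Of the 9, 2 were at an unadjusted p under 0.05 and lower, against 18.4% of all genes, and 0 of 9 reached the 1.5-fold change as well, against 7.24% of all genes. For pairs chosen after their values were seen, the CPM ratio of Cnp to Ugt8a had a median of 1.95 in series 1 (1.27 to 2.56) and 1.48 in series 2 (0.845 to 1.65). That of Mag to Mal was 0.254 in series 1 and 0.169 in series 2. Depth differed between the series as well, and what else differed between them is not given in the sources used here.

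The mice of 1 group differed among themselves. After group and series were taken out, the SD of log2 CPM was 0.35 for Cnp, the steadiest member, and 0.52 for Mobp, the most variable. Over all tested genes the median was 0.29, and among those at or above the level of the lowest member the median was 0.19. The biological coefficient of variation from edgeR was 22.4% for Cnp and 31.8% for Mobp against a median of 19.0% over all genes. With these standard errors the 95% intervals reached beyond 1.5-fold for all 9 members in males and for 8 in females, the exception being Cldn11 at 0.52 on the log2 scale.

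The genes whose levels most resembled the members were found by the correlation of each of 15651 other genes with the mean of the members, after group and series means were taken out. The 10 nearest were Litaf at r = 0.97, Gpr37 and Trf at 0.96, Prr5l and Hapln2 at 0.95, Kif13b at 0.95, and Sept4, Ttyh2, Gjb1 and Bcas1 at 0.94, over 20 libraries. Of the 10, 5 were in the list of other myelin proteins. In all, 88 genes were above 0.8 and 26 above 0.9, while the median of the 15651 was -0.02. By list, the median r was 0.79 for other myelin proteins, 0.41 for the transcription factors and 0.05 for lipid synthesis. It was -0.29 for precursors and -0.43 for newly formed oligodendrocytes, of which Enpp6 alone was above 0.8, at 0.82. Without E64 and E254, a setting chosen after the data were seen, 6 of the same 10 genes were nearest, the r of all 10 was from 0.73 to 0.95, and 23 genes were above 0.8. The median r was then 0.60 for other myelin proteins, 0.37 for lipid synthesis, -0.02 for precursors and -0.18 for newly formed oligodendrocytes. Within series 1 alone 5 of the same 10 genes were nearest, and within series 2 alone 6.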

How the data were processed

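Cortex RNA of 20 APOE4 mice was sequenced, 1 library per mouse. Reads were aligned by the authors with STAR to mm10, and they deposited counts per gene without normalization. Versions, gene annotation and counted strand are not given in the sources used here. The members and gene lists were chosen with earlier results of these data known. Groups came from the sample labels and the series from the library numbers, and no replicate number is shared between groups. None of 41 pairs of mice within a group agreed within sampling noise.

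From the deposited counts, CPM (scaled to the library total) were computed, and log2 CPM on a prior count of 2. Lengths and loci came from GENCODE M21, which matched 21777 of 23413 names, and promoters from RefSeq GRCm38.p6. Groups were compared in edgeR 4.0.16 (R 4.3.3), by quasi-likelihood F test with robust dispersions on 15660 genes that passed filterByExpr, with upper-quartile scaling, 4 groups and the library series in 1 fit, and Benjamini-Hochberg adjustment. DEGs had FDR of at most 0.1 and FC of at least 1.5. The test was checked on simulated counts. P-values measure the spread between mice. The study used RUVg without stating factors or control genes, so it was an alternative only, written anew. Its controls were all but the 5000 genes of smallest p for diet averaged over both sexes. Its factors took the place of the library series term. The other alternatives were TMM, DESeq2 size factors, total counts, other filters, no series term, each sex or series alone, the likelihood ratio test, DESeq2 1.42.0 and each mouse left out. The fits without E64 and E254, and without E227 and E249, were chosen after the values were seen. Genes named are the members, genes of the oligodendrocyte and peripheral myelin lists, the 2 genes of highest mean level in any other list and the 10 genes most like the members, and some genes of these lists are not reported here.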

Additional observations from a re-analysis of the deposited data

How the results depend on the processing

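No member was called in any comparison of diet or sex under any alternative or with any mouse left out. The comparison of the library series is given for the main fit only. The members' median ran from 0.15 to 0.40 in females, from -0.70 to -0.10 in males and from 0.35 to 1.02 for the interaction, so its sign held in all of these, whereas the diet median averaged over both sexes ran from -0.22 to 0.09. Single members turned in a few fits, and the cause was not tested. Cldn11 in females was at -0.0066 with DESeq2 size factors, -0.010 with no filter, -0.067 with RUVg of 2 factors and -0.0080 with the DESeq2 Wald test. In series 2 alone it was at -0.33, Mal at -0.16 and Ugt8a at -0.15. In males Mobp was at 0.0058 and Ugt8a at 0.12 in series 2 alone, where the interaction of Cldn11 was -0.089 and that of Ugt8a -0.27. Mbp at 0.047 and Mobp at 0.042 were the turned members of the male diet comparison without E64 and E254. With 1 mouse left out, only Cldn11 in females changed sign, and it ran from -0.12 to 0.15.

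The number of DEGs among all genes was less stable than the members, and the cause was not tested. In females (7) it was 12 with no filter, 4 with no series term, 93 and 167 with RUVg of 1 and 2 factors, 1 with each sex fitted separately, 865 and 0 in series 1 and 2 alone, 220 with the likelihood ratio test, 253 with DESeq2, 2 at FDR 0.05 with no fold limit and 1953 without E227 and E249, and from 0 (without E61 or E207) to 1046 (without E249) with 1 mouse left out. For the interaction (0) it was 14 in series 1 alone, 1 by either other test, 568 without E227 and E249, and from 0 to 41 (without E227). For the diets averaged (42) it was 3 at FDR 0.05 with no fold limit, 268 and 359 with RUVg, 886 and 0 in the series, 370 and 351 by the other tests, 4 without E64 and E254, 1249 without E227 and E249, and from 2 to 791. For sex (21) it was 13 at FDR 0.05 with no fold limit, 4 with at least 10 counts in every library, 7 and 7 with RUVg, 76 and 5 in the series, 286 and 212 by the other tests, 8 without E64 and E254, 516 without E227 and E249, and from 8 to 813. In males it was 0 throughout. Of the 10 genes most like the members, 5 and 6 were nearest in series 1 and 2 alone, 6 without E64 and E254 and 7 by rank correlation, and 1 of 9 members kept its place in the order of levels without division by length. No paired analysis was possible because the groups share no replicate numbers. Low counts limit Opalin most, at 136 to 1017 reads.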

Other observations

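Genes of the axon at and near the node of Ranvier, which myelin borders, had a median correlation of 0.36 with the mean of the members over the 20 libraries, after group and series means were taken out, and of 0.29 without E64 and E254. Within the list the values ran from -0.56 for Cntn1, an adhesion gene of the axon, to 0.81 for Nefm. Nefm and Nefh, for the larger neurofilament subunits, were at 0.81 and 0.79, the sodium channel gene Scn1a at 0.77 and the potassium channel gene Kcna2 at 0.66. Cntn1 and Kcna2 are the genes of highest mean level in the list, and Nefm, Nefh and Scn1a are outside the rule for named genes and were chosen after their values were seen. Their mean levels were 111 CPM for Nefm, 58.9 for Nefh and 551 for Scn1a. The list summed to 3484 CPM in E64, the lowest of all libraries, and 3706 in E254, against 3689 to 4858 in the others. None of its 15 genes was called by diet in either sex.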
